A study of Mus musculus with 48 samples.

Results

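The effect of losing Myh3 was compared between a front and a back muscle of the lower hindlimb, the tibialis anterior (TA) and the gastrocnemius (Gastroc). For each gene the log2 fold change of knockout over wild type in Gastroc was taken from that in TA, and this difference of effects was tested. The 24 libraries used, of 48 in the series, fall into 4 groups of 6: knockout TA, wild-type TA, knockout Gastroc and wild-type Gastroc. Knockout (KO) libraries carry the genotype label MyH3delta/delta and wild-type (WT) libraries the label MyH3+/+. All mice were C57BL/6 at postnatal day 0, and the RNA was that of whole muscle, so fewer cells of a type and less RNA per cell cannot be told apart. All 15587 genes present in both deposited tables entered, of 16331 in either, and 15001 of them passed a filter on low counts and were tested. The labels call the 6 libraries of a group replicates without saying that each is a separate animal, so the p-values measure the spread between these samples.

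Myh3 encodes embryonic myosin heavy chain, a motor protein of the thick filament that developing limb muscle makes before birth and later replaces with perinatal and adult myosins. Muscle fibres are slow or fast by the myosin, troponin and light chain isoforms they carry, and the mix of these fibres differs between muscles. Stretch or load on a sarcomere is sensed by proteins at the Z disc and along titin, among them the muscle ankyrin repeat proteins, the muscle LIM protein and the Xin proteins, and small heat shock proteins guard filaments under strain.

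The libraries held 11901213 to 21986527 gene counts (median 16105980). The first principal component of the 500 most variable genes took 33.9% of the variance and separated all 12 TA libraries from all 12 Gastroc libraries. Single libraries are named by the number of their count column, 0 to 5. KO columns 0 and 1 stood apart in both muscles: albumin transcripts, in CPM (a gene's counts scaled to a fixed total per library), reached 40.9 and 51.4 CPM in their TA libraries and 21.99 and 17.7 CPM in their Gastroc libraries, against 0.1 to 12.4 CPM in the other 20. Results that rest on these libraries are therefore also given without them. Counts of Y-linked genes exceeded Xist in 2 of 6 KO and in 1 of 6 WT libraries of each muscle.

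The targeted gene was counted in every library. Myh3 ran from 3036 to 3905 CPM (median 3428) in KO TA libraries and from 3668 to 5354 CPM (median 4456) in WT TA libraries. In KO Gastroc libraries it ran from 3988 to 5120 CPM (median 4506), and in WT Gastroc libraries from 3482 to 4741 CPM (median 4293). The groups overlapped in both muscles. The log2 change of KO over WT was -0.38 ± 0.09 (SE) in TA (adjusted p = 0.0826) and 0.12 ± 0.09 in Gastroc (adjusted p = 0.881). Their difference was -0.50 ± 0.13 (95% interval -0.76 to -0.24, adjusted p = 0.398). The sources used here do not say which part of Myh3 the allele lacks, so a count over the whole gene does not check the labels, and all directions below are those of the labels.

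The knockout effect differed between the muscles for 3 of 15001 genes (0.02%) at an adjusted p under 0.05 (Benjamini-Hochberg over all genes tested, edgeR quasi-likelihood F test). All 3, Ces5a, Myl2 and Mapt, had a lower effect in TA than in Gastroc. They reached it in different ways: Myl2 fell in KO TA and was not called in Gastroc, while Mapt and Ces5a rose in KO Gastroc and were not called in TA. No gene passed with a higher effect in TA, where the lowest adjusted p was 0.262. This fit treats the 24 libraries as independent, and the count depends on the model, since the other fits tried called 2 to 54 genes. A difference given below as not passing did not pass in this fit. At an unadjusted p under 0.05 there were 292 genes (1.95%), fewer than the share of 0.05 that this threshold gives when no gene differs. The test may thus be strict in these data, and a difference that did not pass is no sign of equal effects. The median difference over all genes was 0.00, and 49.0% of genes had a negative one.

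Myl2, the regulatory light chain of slow skeletal and ventricular myosin (chr5:122100951-122113472 in mm10, plus strand), ran from 140.6 to 179.6 CPM (median 143.4) in KO TA libraries and from 345.3 to 467.5 CPM (median 377.0) in WT TA libraries. The Gastroc range was 106.4 to 144.6 CPM (median 118.5) in KO libraries and from 89.2 to 173.9 CPM (median 143.4) in WT libraries. The TA groups were far apart and did not overlap, a separation seen in either direction for 0.66% of all genes, while the Gastroc groups overlapped. Expression fell by 1.37 ± 0.12 on the log2 scale in KO TA (adjusted p = 1.54e-07), and the change in KO Gastroc was -0.17 ± 0.12 (adjusted p = 0.853). The difference of effects was -1.20 ± 0.16 (95% interval -1.53 to -0.86, adjusted p = 0.000751). Except in column 2, the KO TA levels lay within the range of WT Gastroc.

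Ces5a, which encodes an enzyme of the carboxylesterase family (chr8:93499213-93535707 in mm10, minus strand), was a gene of few reads. It had 12 to 44 counts in KO TA libraries, 32 to 58 in WT TA, 17 to 45 in KO Gastroc and 5 to 16 in WT Gastroc. In TA this was 1.00 to 2.58 CPM (median 1.72) in KO libraries and 2.06 to 3.86 CPM (median 3.09) in WT libraries. In Gastroc it was 1.31 to 2.64 CPM (median 1.99) in KO libraries and 0.298 to 0.702 CPM (median 0.563) in WT libraries. Every KO Gastroc library was above every WT Gastroc library, a separation seen in either direction for 0.54% of all genes, and in TA the groups overlapped. Expression rose in KO Gastroc, by 1.85 ± 0.26 on the log2 scale (adjusted p = 0.00131). In TA the change was -0.83 ± 0.23, which did not pass (adjusted p = 0.174), and the difference of effects was -2.68 ± 0.35 (95% interval -3.40 to -1.96, adjusted p = 0.000674).

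Mapt encodes tau, a microtubule-binding protein best known from neurons (chr11:104231390-104332090 in mm10, plus strand). It ran from 16.4 to 23.1 CPM (median 20.2) in KO TA libraries and from 15.1 to 27.8 CPM (median 21.9) in WT TA libraries. Gastroc levels were lower, from 5.07 to 9.05 CPM (median 6.69) in KO libraries and from 2.49 to 4.08 CPM (median 2.90) in WT libraries. The TA groups overlapped and the Gastroc groups did not overlap. Expression rose in KO Gastroc, by 1.12 ± 0.16 (adjusted p = 0.00131), and the change in TA was -0.12 ± 0.14 (adjusted p = 0.910). The difference was -1.24 ± 0.21 (95% interval -1.68 to -0.79, adjusted p = 0.0256). It was the least firm of the 3: it passed in 10 of 24 fits that left out 1 library, with adjusted p up to 0.0887, while Ces5a and Myl2 passed in all 24. Schwann cell markers, as a guide to nerve in the samples, summed to 439 to 1176 CPM (median 904) in KO Gastroc and 421 to 1004 CPM (median 803) in WT Gastroc, and 0 of 10 were called. Their part in the Mapt result was not tested.

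**Figure D1:**
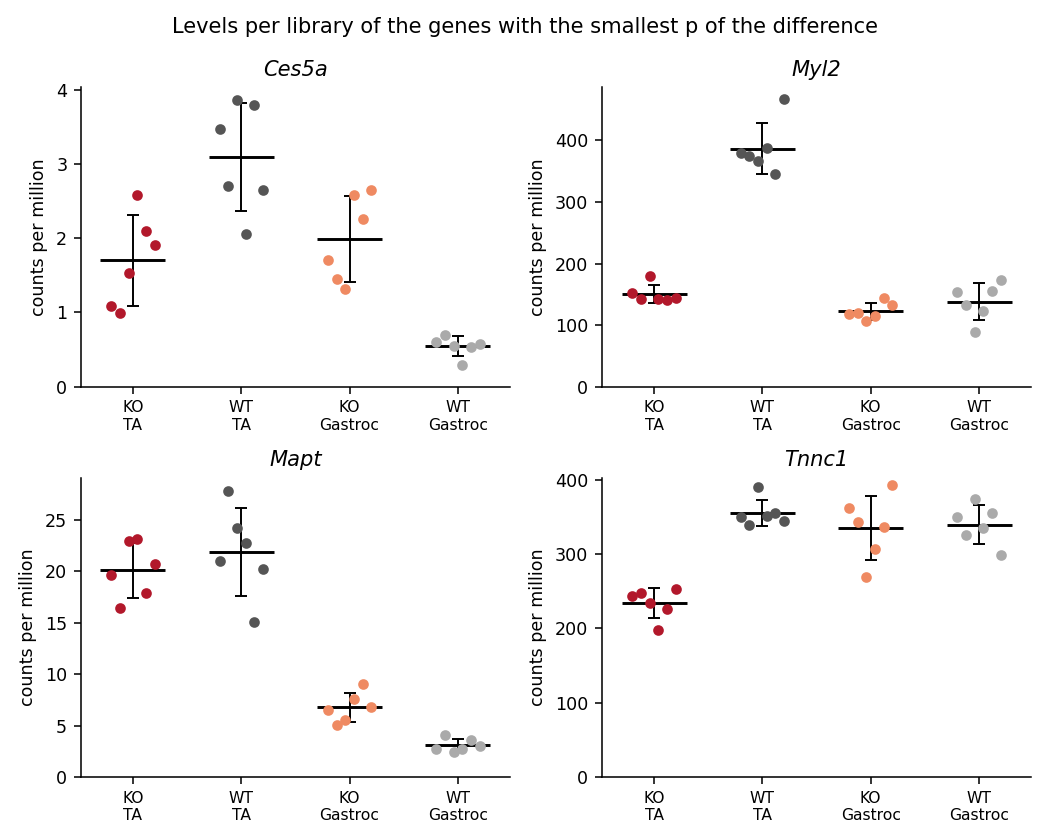
Levels in CPM (vertical axes, from 0) of Ces5a, Myl2, Mapt and Tnnc1 in each of 6 libraries (points) of KO TA, WT TA, KO Gastroc and WT Gastroc, with the group mean (line) and SD (bars). Myl2 and Tnnc1 stand lower in KO TA than in WT TA, with KO and WT Gastroc overlapping, and Ces5a and Mapt stand higher in KO than in WT Gastroc.

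Tnnc1, the calcium-binding troponin C of slow skeletal and cardiac muscle (chr14:31208312-31211729, plus strand), came next by p. It ran from 198.3 to 253.5 CPM (median 238.7) in KO TA libraries and from 339.5 to 389.3 CPM (median 350.2) in WT TA libraries. The Gastroc levels were 269.4 to 392.5 CPM (median 339.3) in KO libraries and from 298.0 to 373.8 CPM (median 342.3) in WT libraries. KO and WT were separate in TA and overlapped in Gastroc. Expression fell by 0.60 ± 0.08 in KO TA (adjusted p = 0.000348) and the change in Gastroc was -0.02 ± 0.08 (adjusted p = 0.989). The difference of -0.58 ± 0.11 did not pass (95% interval -0.81 to -0.35, adjusted p = 0.0695).

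The stretch of 200 bases before the RefSeq start (GRCm38.p6, the same build as mm10) is shown for 4 genes. These are Ces5a as the gene with the smallest p, Tnnc1 as a slow fibre gene, and Xirp2 and Ankrd2 as strain sensors. Of the 4 only Ces5a passed for the difference, and Myl2 and Mapt, which also passed, are not shown. Capitals mark matches, on either strand, to sites known in muscle promoters: the E-box CANNTG of myogenic factors, the MCAT element CATTCC of TEAD factors and the MEF2 site. E-boxes that overlap run together in capitals.
Ces5a, chr8:93535841-93536040, minus strand: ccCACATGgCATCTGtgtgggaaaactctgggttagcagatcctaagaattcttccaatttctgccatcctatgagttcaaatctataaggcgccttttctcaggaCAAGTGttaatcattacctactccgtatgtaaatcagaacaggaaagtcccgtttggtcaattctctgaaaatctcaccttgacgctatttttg
Tnnc1, chr14:31208112-31208311, plus strand: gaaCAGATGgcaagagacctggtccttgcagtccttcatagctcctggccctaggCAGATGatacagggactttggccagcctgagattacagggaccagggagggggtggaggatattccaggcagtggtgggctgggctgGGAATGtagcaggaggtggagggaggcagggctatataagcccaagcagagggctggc
Xirp2, chr2:67445802-67446001, plus strand: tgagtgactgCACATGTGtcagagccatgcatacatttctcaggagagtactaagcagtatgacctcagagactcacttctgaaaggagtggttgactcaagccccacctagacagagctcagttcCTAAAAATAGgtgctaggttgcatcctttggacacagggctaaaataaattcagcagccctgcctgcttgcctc
Ankrd2, chr19:42035827-42036026, plus strand: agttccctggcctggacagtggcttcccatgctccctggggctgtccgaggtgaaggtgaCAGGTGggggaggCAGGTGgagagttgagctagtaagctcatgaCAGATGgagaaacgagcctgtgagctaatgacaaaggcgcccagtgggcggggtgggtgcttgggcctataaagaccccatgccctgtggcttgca
The E-box occurred 3 times before Ces5a, 2 times before Tnnc1, 2 times before Xirp2 and 3 times before Ankrd2. It is common, being present in 58.2% of the 32851 promoters of the RefSeq table over the same 200 bases. Tnnc1 had 1 MCAT element, found in 10.1% of those promoters, and Xirp2 had 1 MEF2 site, found in 2.29%. The CArG box of serum response factor, found in 1.18%, had no match in the 4 windows. The RefSeq start of Ces5a lies 133 bases before the start of the counted gene and that of Ankrd2 lies 11 bases before it. A match describes letters and not a bound factor.

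Slow fibre genes as a group had lower effects in TA than in Gastroc. Of 12 listed and tested, 11 had a negative difference, 9 of them with a 95% interval below 0, against 1.3% of all genes, and none had an interval above 0. Their median effect was -0.39 in TA and 0.08 in Gastroc, and the median difference was -0.39, beside medians of 0.00 over all genes. Only Myl2 passed for the difference. In TA 5 of the 12 fell, where 23 of all 15001 genes (0.153%) were called. Besides Myl2 and Tnnc1 these were Tnnt1, the slow troponin T (-0.36 ± 0.08, adjusted p = 0.0440, kept in 5 of 24 fits that left out 1 library), Myl3, the slow essential light chain, and Tpm3, slow tropomyosin. In Gastroc 2 of the 12 fell, Myl3 and Tpm3, where 49 of all genes (0.327%) were called. Without KO columns 0 and 1 11 of 12 differences were again negative, 10 intervals lay below 0, and Myl2 and Myl6b passed for the difference. In that fit 8 members fell in TA and 1 in Gastroc, where 2.8% and 1.1% of all genes were called in either direction.

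Myl3 and Tpm3 were called in both muscles and fell in each, and no other gene tested was called in both. The Gastroc call held in 8 of 24 fits that left out 1 library for Myl3 and in 15 of 24 for Tpm3. Myl3 ran from 72.3 to 131.2 CPM (median 96.2) in KO TA against 171.5 to 194.9 CPM (median 176.8) in WT TA. In Gastroc the range was 96.2 to 171.6 CPM (median 129.7) in KO against 189.5 to 218.9 CPM (median 195.5) in WT. Neither muscle's groups overlapped. Its change was -0.85 ± 0.13 in TA (adjusted p = 0.00282) and -0.59 ± 0.13 in Gastroc (adjusted p = 0.0407), a difference of -0.26 with a 95% interval of -0.64 to 0.11. Tpm3 changed by -0.46 ± 0.09 in TA (adjusted p = 0.0172) and by -0.40 ± 0.09 in Gastroc (adjusted p = 0.0375), with a difference of -0.07 (-0.32 to 0.19). The slow list thus held members with near-equal estimates in both muscles as well as Myl2.

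Myh7, the slow myosin heavy chain, ran from 522.2 to 826.5 CPM (median 732.3) in KO TA and from 928.3 to 1147 CPM (median 1035) in WT TA. Its Gastroc range was 507.3 to 955.3 CPM (median 793.3) in KO and from 587.6 to 805.5 CPM (median 659.1) in WT. All KO TA libraries were below all WT TA libraries, and the Gastroc groups overlapped. The effect was -0.52 in TA (adjusted p = 0.0826) and 0.21 in Gastroc (adjusted p = 0.804), and the difference of -0.73 ± 0.17 did not pass (-1.08 to -0.37, adjusted p = 0.262). Myl6b (-0.53), Tnni1, the slow troponin I (-0.48), and Mb, myoglobin (-0.50), had differences of like size with intervals below 0. Atp2a2, the slow calcium pump, had an estimate of 0.00 with an interval of -0.38 to 0.38.

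The sarcomere strain sensors and small heat shock proteins showed the reverse arrangement, with the change on the Gastroc side. All 15 members had a negative difference, 10 with an interval below 0, against 1.3% of all genes. Their median effect was -0.09 in TA and 0.45 in Gastroc, and the median difference was -0.61. In Gastroc 5 rose (Ankrd2, Xirp2, Csrp3, Hspb7 and Ankrd1) and in TA none was called. None of the 15 passed for the difference itself in the fit of all 24 libraries as independent. Without KO columns 0 and 1, all 15 differences were again negative and 9 intervals lay below 0. In that fit 3 members passed (Ankrd2, Xirp2 and Hspb7), and the median effect was 0.08 in TA and 0.62 in Gastroc. For these 3 genes the columns left out held the lowest KO values in both muscles, and dropping them narrows the KO spread.

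Ankrd2, a muscle ankyrin repeat protein of the titin I band, ran from 34.9 to 351 CPM (median 202) in KO TA and from 101.9 to 207.8 CPM (median 167) in WT TA. The Gastroc libraries held 33.6 to 211.5 CPM (median 115) in KO and 8.84 to 24.03 CPM (median 12.5) in WT. Every KO Gastroc library was above every WT one, while KO TA libraries lay on both sides of WT TA. Expression rose in KO Gastroc by 3.05 ± 0.50 (adjusted p = 0.00563), the change in TA was 0.20 ± 0.45 (adjusted p = 0.962), and the difference was -2.85 ± 0.66 (-4.22 to -1.49, adjusted p = 0.240). The low KO values were those of columns 0 and 1, at 37.7 and 34.9 CPM in TA and 39.3 and 33.6 CPM in Gastroc, the libraries rich in albumin transcripts. Without these columns in either muscle the difference was -2.79 and passed (adjusted p = 0.000858). They were the lowest KO libraries of the gene in both muscles, and leaving them out narrows its KO spread. The pass is thus no separate support for a difference.

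Xirp2, a Xin repeat protein that binds actin, ran from 135.1 to 427.3 CPM (median 263) in KO TA and from 223.2 to 355.2 CPM (median 244) in WT TA. The Gastroc libraries held 84.4 to 217.5 CPM (median 134) in KO and 41.6 to 59.1 CPM (median 55.3) in WT. The Gastroc groups did not overlap and the TA groups did. Expression rose in KO Gastroc by 1.41 ± 0.24 (adjusted p = 0.00764), against -0.09 ± 0.23 in TA (adjusted p = 0.964). The difference was -1.50 ± 0.33 (adjusted p = 0.167), and without KO columns 0 and 1 it was -1.44 and passed (adjusted p = 0.0199). Those columns again held its lowest KO values in both muscles, so the same limit holds. In the fit without them 8 genes passed, all with a lower effect in TA: the 3 above, Ankrd2, Xirp2, Hspb7, Myl6b and Mettl21c.

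Csrp3, the muscle LIM protein of the Z disc, ran from 335.5 to 799.2 CPM (median 522) in KO TA, 393.6 to 646.7 CPM (median 520) in WT TA, 297.4 to 627.6 CPM (median 485) in KO Gastroc and 190.9 to 288.9 CPM (median 232) in WT Gastroc. Hspb7, a small heat shock protein of heart and muscle, ran from 545.9 to 1233 CPM (median 1030) in KO TA, 811.2 to 1182 CPM (median 943) in WT TA, 414.1 to 749.1 CPM (median 593) in KO Gastroc and 294.5 to 356.1 CPM (median 324) in WT Gastroc. For both genes the Gastroc groups were separate and the TA groups overlapped. Csrp3 rose in KO Gastroc by 0.96 ± 0.18 (adjusted p = 0.0186) and Hspb7 by 0.82 ± 0.17 (adjusted p = 0.0306). The differences were -0.88 ± 0.26 for Csrp3 (adjusted p = 0.972) and -0.89 ± 0.24 for Hspb7 (adjusted p = 0.612). Ankrd1, the cardiac ankyrin repeat protein, rose in KO Gastroc by 1.64 ± 0.36 (adjusted p = 0.0412) with overlapping groups, and its difference was -1.76 ± 0.50 (adjusted p = 0.823). Hspb2, Hspb6 and Hspb8 had differences of -0.07, -0.14 and -0.16, with intervals on both sides of 0.

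**Figure D2:**
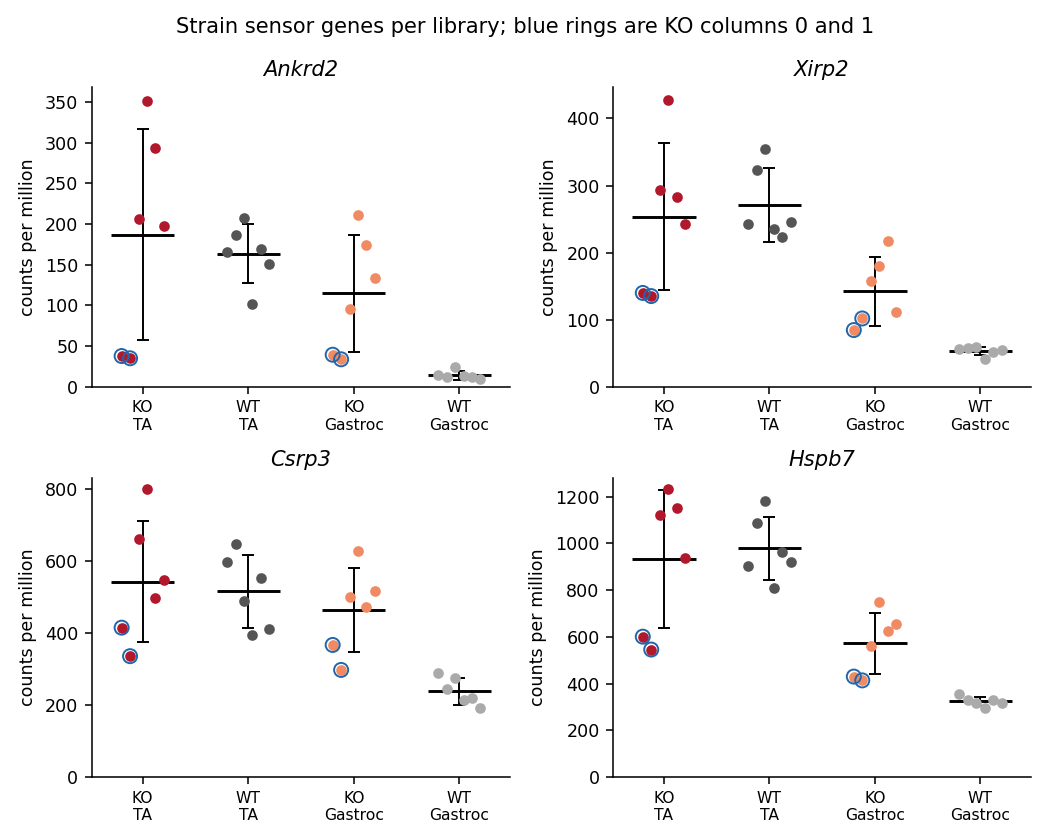
Levels in CPM (vertical axes, from 0) of Ankrd2, Xirp2, Csrp3 and Hspb7 in each of 6 libraries (points) of KO TA, WT TA, KO Gastroc and WT Gastroc, with mean (line) and SD (bars); rings mark KO columns 0 and 1. The ringed libraries are the lowest KO libraries of TA for all 4 genes, and KO Gastroc stands above WT Gastroc throughout.

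Among the 9 sarcomeric myosin heavy chains tested, 5 had a negative difference and the median was -0.03. Myh2, the fast IIA chain, ran from 65.2 to 133.2 CPM (median 99.7) in KO TA and from 67.3 to 154.5 CPM (median 99.3) in WT TA. The Gastroc range was 75.1 to 146.3 CPM (median 103) in KO and from 23.2 to 67.9 CPM (median 41.9) in WT. KO Gastroc libraries were all above WT Gastroc libraries and close to the level of both TA groups. Expression rose in KO Gastroc by 1.35 ± 0.23 (adjusted p = 0.00764), against -0.08 ± 0.23 in TA, and the difference was -1.43 ± 0.32 (-2.09 to -0.77, adjusted p = 0.192). The fast IIB chain Myh4 had a difference of 0.26 (-0.42 to 0.94), the IIX chain Myh1 of 0.02 (-0.78 to 0.83) and the perinatal chain Myh8 of -0.03 (-0.33 to 0.26). Fast fibre genes as a list had a median difference of 0.02, with 7 of 16 negative. Developmental sarcomere isoforms, Myh3 included, had 8 of 9 negative and a median of -0.16. Of these Mybpc3, the cardiac myosin-binding protein C, rose in KO Gastroc (1.59 ± 0.28, adjusted p = 0.00814), with a difference of -1.02 (-1.86 to -0.17, adjusted p = 1.000).

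**Figure D3:**
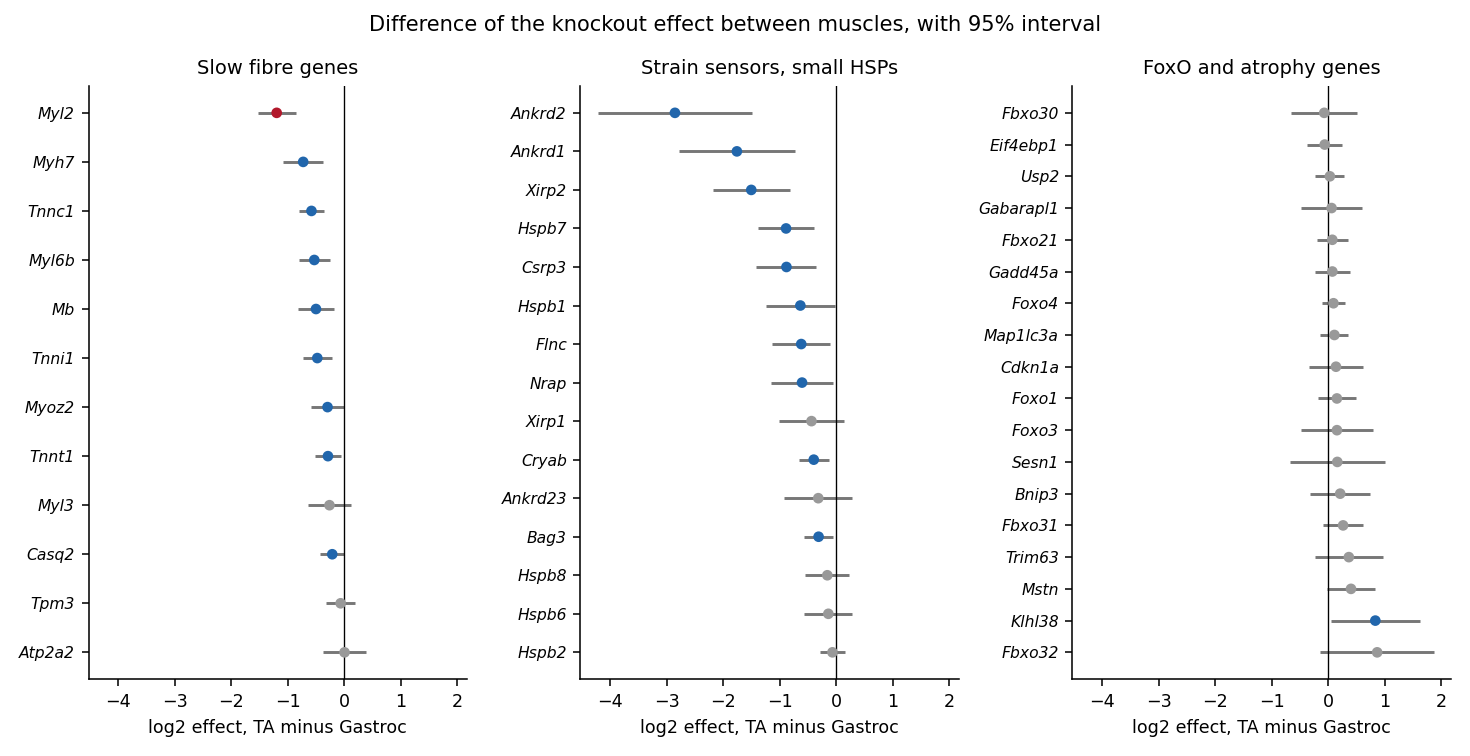
Difference of the knockout effect, TA minus Gastroc (horizontal axes, log2), for each tested member of 3 lists, with its 95% interval (lines). Red is called, blue is an interval on 1 side of 0 that was not called, and grey is an interval that spans 0. Slow fibre genes and strain sensors lie almost all left of 0, and the FoxO and atrophy genes lie mostly right of 0 with intervals that span it, except that of Klhl38.

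The next 6 genes by p after Tnnc1 also had lower effects in TA, with differences of -0.58 to -1.37 and adjusted p of 0.113 to 0.138. Col22a1, a collagen of tissue junctions such as that between muscle and tendon, rose in KO Gastroc by 0.62 ± 0.09 (adjusted p = 0.00131), against 0.05 ± 0.09 in TA. Mettl21c, a lysine methyltransferase of muscle, rose by 0.93 ± 0.18 in Gastroc (adjusted p = 0.0206), against -0.29 ± 0.18 in TA. Ttc9 and Slc6a18, a tetratricopeptide repeat protein and an amino acid transporter, rose in Gastroc by 0.46 and 0.96, against -0.18 and -0.41 in TA. Adprhl1 and Uck2, the second a kinase of nucleotide salvage, were called in neither muscle.

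In the positive direction the 10 genes with the smallest p did not pass. F2rl3, a thrombin receptor, fell in KO Gastroc by 1.29 ± 0.25 (adjusted p = 0.0206), against 0.21 ± 0.25 in TA, but its level was at most 1.15 CPM in every library. Asb11, a muscle ankyrin and SOCS box protein, averaged 18.9 CPM in KO TA and 11.6 CPM in WT TA, and 7.59 CPM in KO Gastroc and 7.78 CPM in WT Gastroc. Its difference was 0.74 ± 0.22 (adjusted p = 1.000). Differences for the other 8 ran from 0.33 to 1.47, and 5 of these genes, Gpat2, Rsl1, Rnf39, Cldn11 and Stk36, averaged under 4 CPM in each group.

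Averaged over TA and Gastroc, 247 genes (1.65%) were called, 169 higher and 78 lower in KO. This fit counts the libraries of both muscles as independent, which calls too many genes if the muscles of a column share an animal. In limma voom, another model, 353 genes were called without a replicate block and 56 with the column number as the block. Of the 247, 244 had the same sign in both muscles, and Mapt, Xirp2 and Myh2 were the exceptions. A gene chosen for its mean effect tends to have 1 sign in both muscles, so this share describes the calls and is no test. For 197 of the 247 the 95% interval of the difference lay within 1 log2 unit of 0, and for 35 it excluded 0. Of the 247, 186 were called in neither muscle by itself. Without KO columns 0 and 1 the mean effect called 1827 genes (12.1%), that in TA 423 (2.8%) and that in Gastroc 166 (1.1%). Across the 15001 genes the effects of the muscles correlated at Pearson r = 0.488 (Spearman rho = 0.473), and at r = 0.602 over the 9371 genes that averaged at least 10 CPM. Genes are not independent replicates, and the muscles of a column may come from the same animal, so these values are descriptions.

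**Figure D4:**
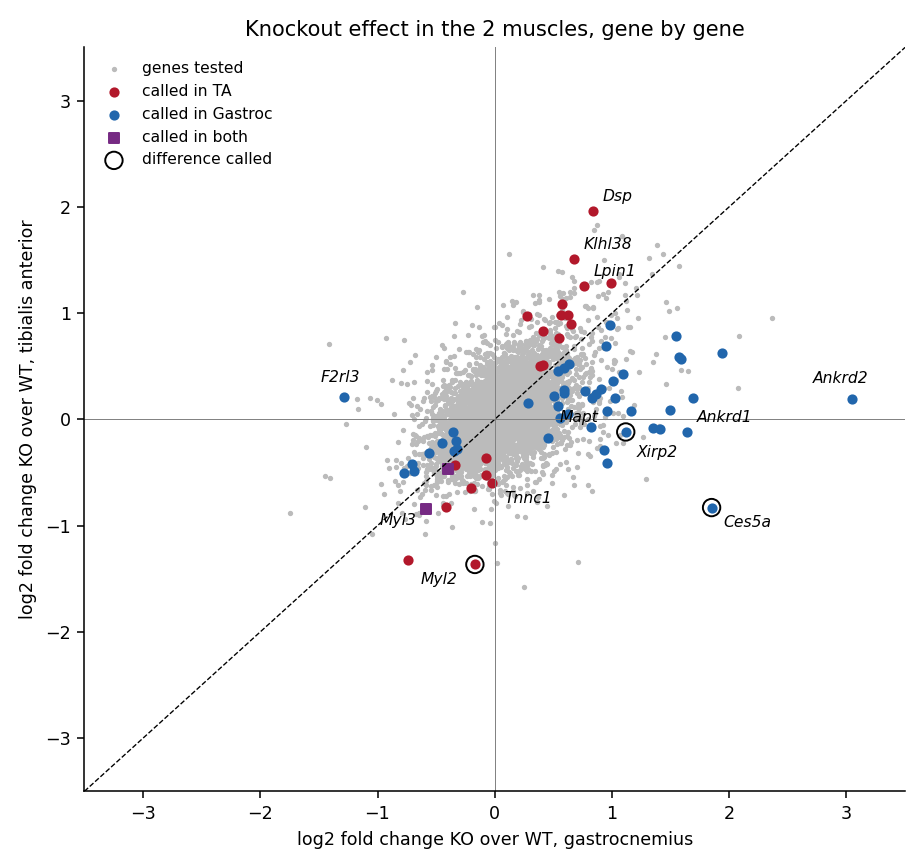
The log2 fold change of KO over WT in TA (vertical axis) against that in Gastroc (horizontal axis) for 15001 genes, with genes called in TA, in Gastroc or in both coloured, called differences ringed and equal effects on the dashed line. Genes called in TA lie above the dashed line when raised and below it when lowered, while many genes raised in Gastroc lie close to 0 in TA.

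Each muscle's own calls differed in this respect. Of the 23 genes called in TA (13 higher, 10 lower), none had the opposite sign in Gastroc, and the interval of the difference excluded 0 for 8. Of the 49 called in Gastroc (37 higher, 12 lower), 10 had the opposite sign in TA and the interval excluded 0 for 30. All 37 genes raised in Gastroc had a lower effect in TA, and 10 of the 12 lowered in Gastroc had a higher one. A gene chosen because it passed in a muscle tends to have its larger estimate there, so these shares describe the calls and are no test.

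Several FoxO targets and ubiquitin ligases of muscle atrophy rose in KO, and none was called for the difference between the muscles. Averaged over both muscles, 5 of 18 rose (Klhl38, Fbxo32, Trim63, Foxo1 and Usp2), against 1.65% of all genes called in either direction. That average is from the fit without a replicate block. The call of Fbxo32, the ubiquitin ligase atrogin-1, held in 7 of 24 fits that left out 1 library. Trim63, the ubiquitin ligase MuRF1, ran from 58.3 to 189.7 CPM (median 84.8) in KO TA against 41.8 to 55.7 CPM (median 47.4) in WT TA. Gastroc libraries held 37.7 to 77.4 CPM (median 53.0) in KO against 29.9 to 36.6 CPM (median 35.8) in WT. KO was above WT without overlap in both muscles. Trim63 rose in TA by 0.99 ± 0.21 (adjusted p = 0.0440), a call kept in 6 of 24 fits that left out 1 library. Its change in Gastroc was 0.62 ± 0.21 (adjusted p = 0.335), and the difference was 0.36 with an interval of -0.24 to 0.96. Klhl38, a Kelch protein of muscle, rose in TA by 1.51 ± 0.28 (adjusted p = 0.0163), against 0.68 ± 0.27 in Gastroc (adjusted p = 0.529), and the interval of its difference was 0.04 to 1.62 (adjusted p = 1.000). The list had 16 of 18 positive differences, with a median of 0.14. Without KO columns 0 and 1, 12 of the 18 rose on average over the muscles, 8 in TA and 2 in Gastroc, where 12.1%, 2.8% and 1.1% of all genes were called.

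Glucocorticoid and fasting response genes had medians of 0.58 in TA and 0.51 in Gastroc. When averaged over both in the fit without a replicate block, 6 of 17 rose, where 1.65% of all genes were called. Leaving out KO columns 0 and 1, 12 of 17 rose, where 12.1% of all genes were called. Lpin1, a phosphatidate phosphatase of lipid synthesis, rose in TA by 1.25 ± 0.22 (adjusted p = 0.00946), against 0.76 ± 0.22 in Gastroc (adjusted p = 0.215), a difference of 0.50 (-0.14 to 1.13). Cebpb, a leucine zipper transcription factor, rose in Gastroc by 0.95 ± 0.17 (adjusted p = 0.0104), against 0.69 ± 0.17 in TA (adjusted p = 0.104), a difference of -0.26 (-0.75 to 0.23). No interval of the 17 excluded 0. Fkbp5, a glucocorticoid-induced immunophilin, had estimates of 1.00 in TA and 1.02 in Gastroc, but the interval of its difference, -1.16 to 1.12, was wide.

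Serine synthesis genes and targets of ATF4, the transcription factor of amino acid stress, had 14 of 16 negative differences and a median of -0.27, 4 with an interval below 0. Psat1, an aminotransferase of serine synthesis, fell in TA by 0.52 ± 0.10 (adjusted p = 0.0163), against -0.07 ± 0.09 in Gastroc (adjusted p = 0.960), and the difference did not pass (-0.45, -0.72 to -0.17). Immediate early genes had median effects of 0.21 in TA and 0.45 in Gastroc, positive for 18 of 22 in TA and for all 22 in Gastroc. Their differences were negative for 18 of 22, with a median of -0.16 and 4 intervals below 0. Egr1 had the largest negative estimate among them (-0.92, -1.77 to -0.07, adjusted p = 1.000). FGF and MAPK feedback genes had 12 of 13 negative, and Dusp5, a phosphatase of ERK, rose in Gastroc. Cell cycle genes had 18 of 20 negative with a median of -0.13, and no interval of theirs excluded 0. None was called in TA or in Gastroc, with median effects of -0.08 in TA and 0.02 in Gastroc. With KO columns 0 and 1 left out, the effects had medians of -0.30 in TA and -0.18 in Gastroc, and 6 of 20 fell in TA and 8 on average, while the median difference was -0.10.

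The remaining muscle lists had medians within 0.07 of 0: myogenic factors, neuromuscular junction, calcium handling, glycolysis, oxidative phosphorylation, lipid use, clock and limb position genes. Within them Ppargc1a, the coactivator PGC-1alpha, rose in TA by 0.76 (adjusted p = 0.0374), against 0.55 in Gastroc (adjusted p = 0.189). Slc2a1, a glucose transporter, was called higher in Gastroc.

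Among markers of other cell types, all 10 tendon markers had a negative difference (median -0.40). So had 6 of 7 tested cartilage and bone markers (median -0.80), but none of either list was called in TA or in Gastroc. The interval of the difference lay below 0 for 2 tendon markers and 1 cartilage and bone marker, against 1.3% of all genes. Tendon markers summed to 2511 to 3065 CPM in KO TA, 2566 to 3144 CPM in WT TA, 2305 to 3576 CPM in KO Gastroc and 1537 to 3468 CPM in WT Gastroc. Cartilage and bone markers summed to 311 to 592 CPM in KO TA, 340 to 468 CPM in WT TA, 242 to 1352 CPM in KO Gastroc and 121 to 996 CPM in WT Gastroc. The ranges of KO and WT overlapped in both muscles. With KO columns 0 and 1 left out, all 10 tendon and all 7 cartilage and bone markers had a negative difference. Their median differences were -0.30 for tendon and -0.37 for cartilage and bone, with 0 and 1 intervals below 0. Their part in the genes raised in KO Gastroc was not tested. Liver markers had 6 of 6 positive differences (median 0.64), with median effects of 1.04 in TA and 0.33 in Gastroc and sums of up to 122 CPM in KO TA, 52.9 CPM in WT TA, 68.7 CPM in KO Gastroc and 60.5 CPM in WT Gastroc. With those 2 KO columns left out of each muscle, 5 of 6 were positive (median 0.35), and the median effects turned to -1.08 in TA and -1.47 in Gastroc. Endothelial markers had 10 of 10 positive and macrophage markers 8 of 9, with medians of 0.09 and 0.11. In the same fit these were 8 of 10 and 6 of 9, with medians of 0.09 and 0.04. Of 3 skin markers tested, Dsp, a desmosome protein of skin and heart, rose in TA (1.96, adjusted p = 0.0239). The other 2 had negative estimates there. Dsp had only 7 to 23 counts in KO TA libraries and 1 to 7 in WT TA libraries, and its call held in 19 of 24 fits that left out 1 library. No fibroblast, endothelial, macrophage, erythroid or Schwann marker was called in TA or in Gastroc. Averaged over both muscles in the fit without a replicate block, 2 of 10 endothelial and 1 of 10 fibroblast markers fell. In that average 1.65% of all genes were called.

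Seen from the other side of the same contrast, the question is how far the muscles differed within each genotype. All 10 genes named by p with a negative difference were higher in TA than in Gastroc in WT libraries, and for 9 the gap was smaller in KO libraries. The difference of effects equals the gap in KO minus that in WT. A smaller gap in KO therefore follows largely from how these genes were chosen and is no test. The TA over Gastroc gap of Ces5a was -0.21 ± 0.23 in KO and 2.47 ± 0.26 in WT. That of Myl2 was 0.29 ± 0.12 in KO and 1.49 ± 0.12 in WT, and that of Mapt was 1.56 ± 0.15 in KO and 2.80 ± 0.16 in WT. The strain sensors followed the same order, with gaps for Ankrd2 of 0.71 in KO and 3.56 in WT and for Xirp2 of 0.84 in KO and 2.34 in WT. Tnnc1 was the exception of the 10, with a gap of -0.52 ± 0.08 in KO and 0.06 ± 0.08 in WT. Of the 10 with a positive difference, 3 were higher in TA in WT libraries, and the gap was smaller in KO for 6.

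**Figure D5:**
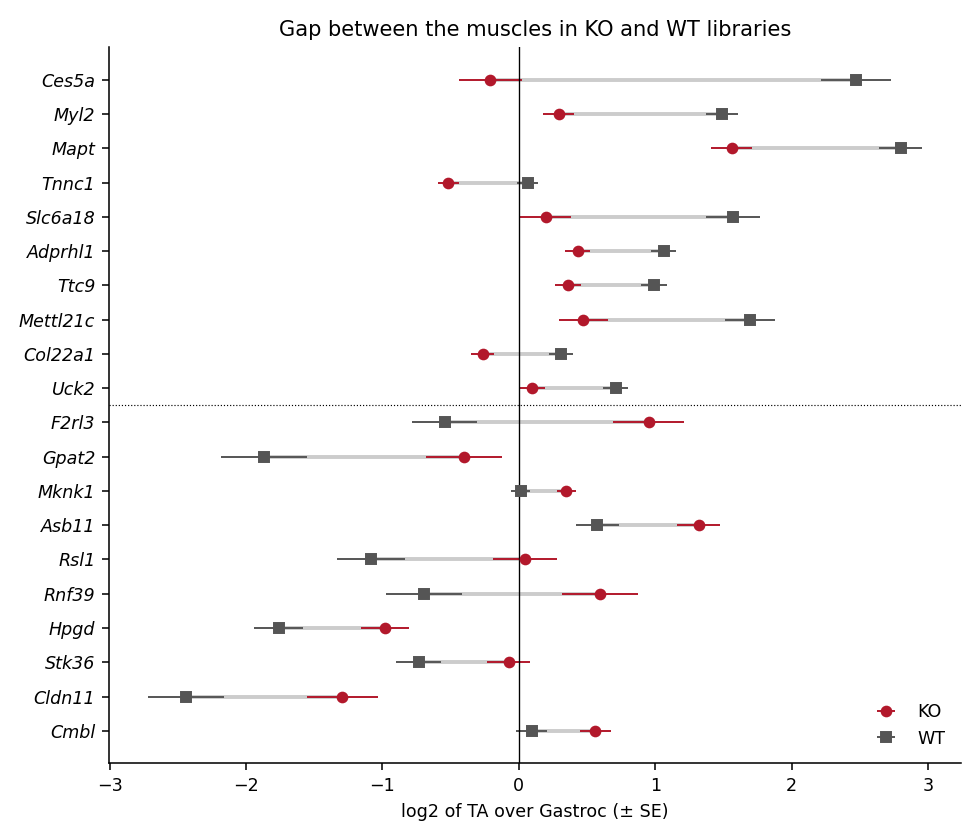
The log2 ratio of TA over Gastroc (horizontal axis, ± SE) in KO libraries (red circles) and WT libraries (grey squares) for the 10 genes with the smallest p in each direction, negative differences above the dotted line and positive ones below it. Above the line all WT points lie right of 0, with Tnnc1 closest to 0, and the KO points lie to the left of them.

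Over all genes such a narrowing depended on which genotype chose the genes. Of 415 genes at least 2-fold apart between the muscles in WT libraries (adjusted p under 0.05), the gap was smaller in KO for 70.8%, with medians of 1.14 in KO and 1.33 in WT. Of 382 genes chosen in the same way in KO libraries, the gap was smaller in WT for 65.7%, with medians of 1.29 in KO and 1.2 in WT. Genes chosen for a wide gap in a genotype tend to have a smaller one in the other, and nearly all kept its sign (410 of 415 and 377 of 382).

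In the muscles outside the comparison, from a fit of all 48 libraries, Myl2 also fell in KO quadriceps (-1.16 ± 0.15, adjusted p = 1.95e-05) and changed by -0.34 ± 0.15 in KO diaphragm (adjusted p = 0.725). Ces5a had estimates of 0.37 ± 0.28 in quadriceps and 0.47 ± 0.29 in diaphragm, and Mapt of 0.45 ± 0.18 and 0.15 ± 0.17, none of which passed. Ankrd2 had estimates of 1.58 ± 0.44 in quadriceps and 1.42 ± 0.43 in diaphragm, also not called.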

How the data were processed

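The counts are the authors' own and were deposited unnormalized. Per the file headers they number the alignments within the exons of a gene on mm10, a read pair giving 1. By the same headers the authors dropped genes with fewer than 10 counts or marked for very high counts. Genes of high total counts are still present, such as Myh3 with 113853 counts in KO Gastroc column 0. RNA was selected with oligo dT for a stranded kit, per the labels' protocols. Picard is named in the submitters' processing notes; the aligner and the strand setting are not given in the sources used here. The deposited tables also carry the authors' log2 ratios, their adjusted p-values as a score of -10 times log10, and exonic lengths, none of which is printed. Another 96 columns of per-sample values were not used.

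Count columns were placed in groups by genotype and muscle. All 4 groups entered 1 quasi-likelihood model in edgeR 4.0.16 under R 4.3.3, after its expression filter and TMM scaling, with p-values adjusted by Benjamini-Hochberg and called at 0.05. Standard errors come from dividing each log2 change by the square root of its F statistic. Levels are CPM on TMM-scaled totals. Library pairs of a group differed beyond sampling noise (chi-square per degree of freedom 5.09 to 45.0 over 60 pairs). In simulated counts the test of the difference found 20.9% of 1.5-fold, 67.2% of 2-fold and 93.9% of 3-fold changes over 14851 genes. The simulated libraries were independent of each other, and 125 genes were called in them, against 3 in the data. With more calls the cut-off on p is looser, so these shares do not carry over to the data. Alternatives included DESeq2 1.42.0 and limma 3.58.1.

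Genes were named by rule: Myh3, up to 15 called per direction for the difference or the next 10 by p, up to 12 per direction and muscle, and up to 4 per list. Csrp3, Slc2a1, Foxo1, Usp2, Fkbp5, Mb, Tnni1, Atp2a2, Hspb2, Hspb6, Hspb8, Myh1, Myh4 and Myh8 fall outside the rule and were chosen after their values were seen. The genes and lists were chosen with earlier results of these data known. Sequences are from RefSeq, whose promoter table held 116 of the 158 named genes. Of the 158, 87 overlap no other annotated gene of GENCODE M21. Among those of the 158 printed in the text, genes overlap Cebpb, Col22a1, Dsp, Dusp5, Ebf2, Fbxo32, Klhl38, Mapt, Mettl21c and Myh2. Genes also overlap Myh3, Myh7, Myl2, Pde4d, Ppargc1a, Psat1, Tnnc1, Uck2 and Xirp2. Reads may be shared at these if strand was not used. For Mettl21c, Myh3, Myh7, Pde4d and Ppargc1a an overlapping gene lies on the same strand, so reads may be shared there even if strand was used.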

Additional observations from a re-analysis of the deposited data

Results flagged for a closer look

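The knockout effect differed between TA and Gastroc, by the test of the difference itself, for Ces5a (-2.68), Myl2 (-1.20) and Mapt (-1.24), on the log2 scale as TA minus Gastroc.

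Of 284 groups of 6 libraries checked (71 genes in 4 groups), 15 had a library far from the rest of its group; chance gives about 1 in 20. In KO TA these were Myl2 at 179.6 CPM in column 2, Klhl38 at 25.17 CPM in column 4, and Ankrd1 at 119.5 CPM, Lpin1 at 131.7 CPM and Trim63 at 189.7 CPM in column 3. In KO Gastroc it was Cebpb at 39.59 CPM in column 3. In WT TA these were Myl2 at 467.5 CPM in column 5, Tnnc1 at 389.3 CPM in column 2, Col22a1 at 92.6 CPM in column 4 and Spi1 at 6.344 CPM in column 1. In WT Gastroc these were Ankrd2 at 24.03 CPM and Tnnt1 at 511.1 CPM in column 2, Asb11 at 11.36 CPM and Cmbl at 39.0 CPM in column 1, and Trim63 at 29.9 CPM in column 5.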

How the results depend on the processing

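The count columns carry numbers 0 to 5 that the sources do not tie to the replicate numbers of the labels. Of 12 TA and Gastroc pairs with 1 column number, 10 deviated together from their group means. Across genes these 10 correlated best with their own number (r up to 0.701). WT columns 3 and 4 did not (-0.187 and -0.119). Their TA libraries correlated best with a Gastroc column of another number (0.572 and 0.463). Counts of Y-linked genes exceeded Xist in KO columns 2 and 3 and WT column 1 of both muscles. The sources state no pairing, so the numbers are a hint and not a pairing by design. The replicate block below keeps WT columns 3 and 4 paired by number. With the column number as a replicate block, a fit chosen after seeing the data, 54 genes were called for the difference (3 higher and 51 lower in TA, the 3 included), and the difference of Myh3 passed (-0.50, adjusted p = 0.00258). So did Tnnc1, Myh7, Ankrd2, Xirp2, Hspb7, Csrp3 and Ankrd1, all lower in TA. Asb11 (adjusted p = 0.0279) and Pde4d (adjusted p = 0.0347) were among the 3 with a higher effect in TA. With the block as a random term in limma, 64 genes were called in TA, 52 in Gastroc and 56 on average. Ces5a and Myl2 passed for the difference in every setting in which they were tested (adjusted p up to 0.00239 and 0.0120); Ces5a was not tested under the stricter count filter. Mapt passed in 20 of 35 settings (adjusted p up to 0.0985) and Tnnc1 in 5. Genes called for the difference numbered 16 with DESeq2, 8 with limma voom and 8 without KO columns 0 and 1, all lower in TA and each including the 3. With 1 library left out they numbered 2 to 6, with 6 without KO Gastroc column 2. Genes called in TA numbered 98, 53 and 423 in the same settings, 14 with each muscle fitted alone (a setting chosen after seeing the data) and 13 to 26 with 1 library left out, falling to 14 without KO TA column 3 and to 13 without WT TA column 0, 1 or 3. Genes called in Gastroc numbered 101 with DESeq2, 166 without KO columns 0 and 1, 23 fitted alone and 17 to 55 with 1 library left out. They fell to 17 and 23 without KO Gastroc column 3 or 4, to 22 and 23 without WT Gastroc column 2 or 4, and to 32 without WT Gastroc column 0 or 5. The mean effect called 450 genes with DESeq2, 1827 without KO columns 0 and 1 and 153 to 295 with 1 library left out, with 153 without KO TA column 3, 156 and 162 without WT TA column 2 or 3, and 154 without KO Gastroc column 3. The cause was not tested. Single calls of a muscle were often lost when 1 library was left out; of those named, Ppargc1a in TA was kept in 15 of 24 such fits, and Ankrd1 and Slc2a1 in Gastroc in 13 and 15. The difference of Myh3 stayed between -0.55 and -0.44. Without KO columns 0 and 1 the uncalled difference changed sign for Ebf2 (0.029) and Slc2a1 (0.10). With 1 library left out it spanned 0 for Slc2a1 (-0.22 to 0.059), Tpm3 (-0.11 to 0.0079) and Myh8 (-0.087 to 0.050). In simulated independent libraries, 67.2% of 2-fold differences and 20.9% of 1.5-fold differences were found. More genes were called there than in the data, so these shares do not measure what the test could find in the data.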
